A study of Rattus norvegicus with 12 samples.

Results

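The genes described here are 9 genes of cellular iron handling: Fth1 and Ftl1 (ferritin heavy and light chains), Tfrc (transferrin receptor), Tf (transferrin), Cp (ceruloplasmin), Hp (haptoglobin), Slc40a1 (ferroportin), Slc11a2 and Slc11a1. They were listed by symbol and role, and for each the brightest array row annotated with that symbol alone gave its level. Of the 9, 8 had such a row among 18166 genes of the series. Both rows of Tf carried a second symbol, Srprb, so that Tf had no value of its own.

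The arrays came from male Sprague-Dawley rats (age 7 to 9 weeks, weight 250 to 350 g), 3 days after the inferior vena cava was ligated between the renal veins. The left kidney was congestive, and the right kidney of the ligated rat was the control. The 4 groups were congestive outer medulla, control outer medulla, congestive cortex and control cortex, with 3 arrays each (12 in all, GeneChip Rat Gene 2.0 ST). The control kidneys also came from operated rats, and no kidney of an unligated rat was among the arrays. Values were deposited on a log scale, taken here as log2 since the base is not given in the sources used here, and fold values rest on this. The brightness of a row depends on its probes, so levels were compared between groups for 1 gene and never between genes.

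Array medians were 6.02 to 6.09, and arrays of the same group correlated at r of 0.988 to 0.991 across rows. The region labels fitted most of their markers. In control kidneys 6 of 7 thick ascending limb genes were higher in outer medulla than in cortex and 0 were lower. Of 12 proximal tubule genes, 7 were lower and 2 were higher in outer medulla. The shares over all genes were 11.4% higher and 10.1% lower. The congestive outer medulla arrays differed from each other in proximal tubule markers. The mean level of the 12 proximal tubule markers was 9.84 in replicate 2 of congestive outer medulla, against 10.48 and 11.03 in the other congestive outer medulla arrays and 10.91 to 10.92 in control outer medulla. In cortex this mean was 11.59 to 11.67 in congestive and 11.60 to 11.88 in control kidneys. In such bulk tissue, fewer cells of a type and less RNA per cell cannot be told apart.

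Iron circulates bound to transferrin and enters most cells through the transferrin receptor, after which Slc11a2 (DMT1) moves ferrous iron out of the endosome. Cells store iron in ferritin, a shell of heavy and light chains, and export it through ferroportin, while ceruloplasmin, a copper ferroxidase, oxidizes exported iron so that transferrin can bind it. Haptoglobin captures free hemoglobin, and Slc11a1 (NRAMP1) is the metal transporter of the phagosome of macrophages. When a cell holds little iron, iron regulatory proteins bind the transferrin receptor and ferritin mRNAs, which stabilizes the receptor mRNA and blocks ferritin translation. Ferritin protein can therefore change without its mRNA, and protein was not measured on these arrays. The kidney tubule takes up filtered iron and carries transferrin receptor, DMT1 and ferroportin.

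Promoter sequence is shown for Cp and Tfrc, because of the members these had the largest change in each direction. The sequences are the 250 bases before the annotated start of each gene in RefSeq (GRCr8), 5′ to 3′ on the strand of the gene, with matches to the searched motifs in capitals. Of the 9 genes, 5 matched the promoter table (Cp, Slc11a2, Slc40a1, Tf and Tfrc).
Cp, chr2:104368420-104368669, plus strand: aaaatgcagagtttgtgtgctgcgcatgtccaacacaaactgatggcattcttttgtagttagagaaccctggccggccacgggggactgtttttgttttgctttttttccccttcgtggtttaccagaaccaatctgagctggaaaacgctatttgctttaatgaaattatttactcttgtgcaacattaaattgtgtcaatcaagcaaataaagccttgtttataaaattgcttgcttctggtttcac
Tfrc, chr11:81690319-81690568, minus strand: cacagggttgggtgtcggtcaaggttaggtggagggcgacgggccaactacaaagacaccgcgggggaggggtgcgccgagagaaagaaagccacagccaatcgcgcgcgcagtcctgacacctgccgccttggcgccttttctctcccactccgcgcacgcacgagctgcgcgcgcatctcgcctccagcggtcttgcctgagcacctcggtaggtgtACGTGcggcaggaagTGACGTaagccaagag
The search covered both strands for ACGTG (the core of the hypoxia response element), TGACGT (the core of the cAMP response element), GGGCGG (the GC box), TGACNNNGC (the core of the antioxidant response element) and TTCNNNGAA (a STAT site). The Tfrc window held ACGTG 31 bases and TGACGT 16 bases before the start, which did not overlap. Of 33469 rat promoter windows of this length, 16.6% held ACGTG and 6.95% held TGACGT. The Cp window held none of the motifs searched, which says only that these letters are not in this window. GGGCGG, in 30.5% of windows, stood 3 times in the Slc40a1 window and 4 times in 1 of the Slc11a2 windows, and TGACNNNGC and TTCNNNGAA, in 10.1% and 7.67% of windows, were found in none of the members' windows. A match of letters is a description and not a site shown to be used.

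The comparison of the congestive with the control kidney asked which iron handling genes differed after 3 days of venous obstruction. In congestive outer medulla Cp and Slc11a1 were higher and Tfrc was lower than in control outer medulla, and the same held in cortex (limma, adjusted p under 0.05). Thus 2 of 8 members were called higher and 1 of 8 lower in each region, beside 11.8% and 11.3% of all genes in outer medulla and 7.98% and 3.64% in cortex. Called higher in both regions were 6.18% of all genes, and called lower in both were 1.99%. Fth1, Ftl1, Hp, Slc40a1 and Slc11a2 were not called in either region. Congestive and control arrays did not overlap for 5 of 8 members in outer medulla and 4 of 8 in cortex, beside 36.0% and 34.0% of all genes. The median log2 change of the 8 members was -0.02 in outer medulla and -0.04 in cortex, beside -0.01 and -0.02 over all genes.

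**Figure D1:**
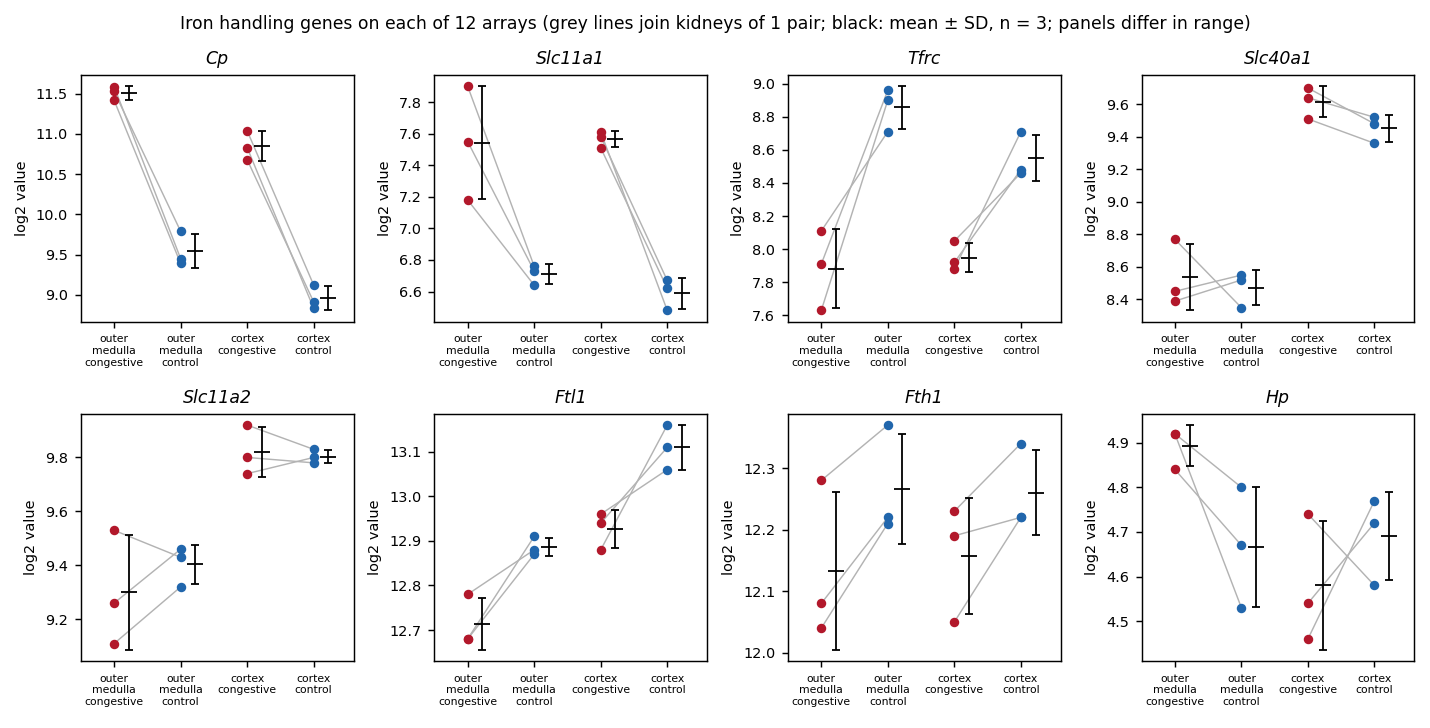
Log2 value of each of the 8 measured iron handling genes on each array, by group (congestive red, control blue), with grey lines joining the kidneys of a pair and the mean ± SD beside the points (n = 3). Cp and Slc11a1 lie above and Tfrc below the control kidneys in both regions with no overlap, and Slc40a1 separates by region while its congestive and control values overlap.

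Ceruloplasmin had the largest change of the 8 genes. The Cp row (17737360) read 11.59, 11.53 and 11.42 in congestive outer medulla, against 9.45, 9.79 and 9.39 in control outer medulla. In cortex it read 10.68, 11.04 and 10.83 in congestive kidneys, against 8.91, 9.12 and 8.83 in control kidneys. The groups did not overlap in either region, as held in this direction for 18.4% of all genes in outer medulla and 17.2% in cortex, and each pair showed the same direction. The log2 change was 1.97 ± 0.10 in outer medulla (SE, n = 3 pairs, limma, adjusted p = 2.1e-05), a 3.92-fold higher level with a 95% interval of 3.36 to 4.56. In cortex it was 1.90 ± 0.10 (adjusted p = 0.00012), a 3.73-fold higher level with an interval of 3.20 to 4.34. The difference between these changes was 0.07, with an interval of -0.24 to 0.38 (adjusted p = 0.87). Ranked by log2 change among the 18166 genes, Cp stood 46 from the top in outer medulla and 14 from the top in cortex.

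Cp also differed by region. In congestive kidneys it was higher in outer medulla than in cortex by 0.66 (log2, 1.58-fold, adjusted p = 0.003), and in control kidneys by 0.59 (1.51-fold, adjusted p = 0.0047). The difference lost its call without replicate 1 in both conditions (0.54, adjusted p = 0.13, in congestive and 0.62, adjusted p = 0.062, in control kidneys). The 4 groups ran from congestive outer medulla through congestive cortex and control outer medulla to control cortex, and no neighbours in this order overlapped. Thus the congestive cortex exceeded the control outer medulla.

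Ceruloplasmin is best known as a plasma protein of the liver, so other genes of that kind are given beside it. Of 13 measured hepatocyte-type plasma protein genes, 5 were higher and 0 lower in each region. Over all genes 11.8% were higher in outer medulla and 7.98% in cortex. The 5 were Fga, Fgb, Fgg, A2m and C3 in outer medulla and Fga, Fgb, Fgg, A2m and Hpx in cortex. Of these, Fga and Hpx were named with their values known. The cortical call of Fgb was lost without replicate 2 (1.09, adjusted p = 0.071) or 3 (0.81, adjusted p = 0.13) and with all rows tested (adjusted p = 0.071). The mean level of the list was 6.27 to 6.41 in congestive and 5.49 to 5.76 in control outer medulla, and 6.02 to 6.20 in congestive and 5.6 to 5.66 in control cortex. The row of albumin, the defining gene of hepatocytes, read 4.74 to 4.82 in congestive and 4.83 to 4.88 in control outer medulla. In cortex it read 4.77 to 4.83 in congestive and 4.80 to 4.97 in control kidneys. The differences were -0.07 (limma, adjusted p = 0.58) in outer medulla and -0.06 (adjusted p = 0.66) in cortex. The albumin row was dim beside a median of 6.04 over all rows.

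Slc11a1, the phagosomal metal transporter, was the other member with a higher level. Its row (17860366) read 7.90, 7.55 and 7.18 in congestive outer medulla, against 6.76, 6.73 and 6.64 in control outer medulla. In cortex it read 7.58, 7.61 and 7.51 in congestive kidneys, against 6.67, 6.48 and 6.62 in control kidneys. Congestive and control arrays did not overlap, although the congestive outer medulla arrays spread over a wider range than those of any other group. The log2 change was 0.83 ± 0.12 in outer medulla (1.78-fold, SE, n = 3 pairs, limma, adjusted p = 0.0019) and 0.98 ± 0.12 in cortex (1.97-fold, adjusted p = 0.0019). The changes differed by -0.15, with an interval of -0.53 to 0.23 (adjusted p = 0.76). Between outer medulla and cortex the level differed by -0.03 in congestive kidneys (adjusted p = 0.94) and by 0.12 in control kidneys (adjusted p = 0.62).

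Macrophage markers moved with Slc11a1. Of 20 macrophage and monocyte markers, 18 were higher in congestive outer medulla and 14 in congestive cortex, and 0 were lower. The shares of all genes called higher were 11.8% and 7.98%. The mean level of the 20 was 8.11 to 8.49 in congestive and 7.10 to 7.19 in control outer medulla, and 8.0 to 8.06 in congestive and 7.13 to 7.27 in control cortex. The log2 change was 3.13 in outer medulla and 2.25 in cortex for Mrc1, the mannose receptor, and 1.54 and 1.33 for Csf1r, the receptor of macrophage colony-stimulating factor. Of 10 neutrophil markers, 1 was higher in outer medulla and 0 in cortex, beside the same shares of all genes. The neutrophil list was dim, with a mean of 4.64 to 4.86 on the 12 arrays beside a median of 6.04 over all rows. A lack of calls in it therefore says little about neutrophils. The part of macrophage number in the Slc11a1 change was not tested.

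**Figure D2:**
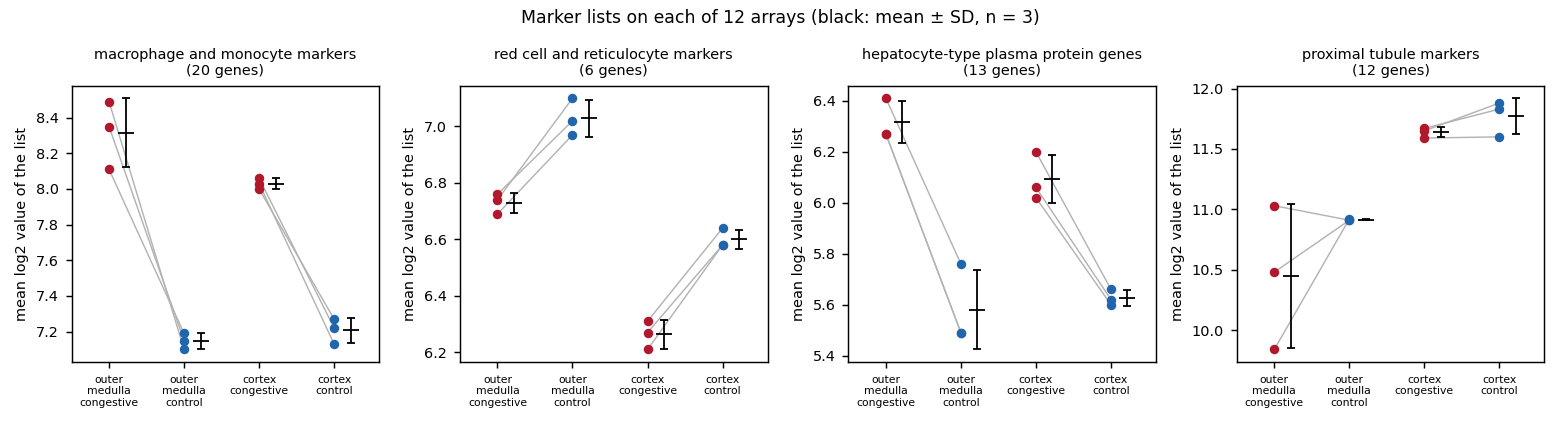
Mean log2 value of 4 marker lists on each array, by group (congestive red, control blue, mean ± SD, n = 3). Macrophage markers lie at 8.0 to 8.49 in congestive and 7.10 to 7.27 in control kidneys, and red cell markers lie lower in congestive kidneys. Proximal tubule markers spread from 9.84 to 11.03 in congestive outer medulla.

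The transferrin receptor was the member with a lower level. The Tfrc row (17669755) read 7.63, 7.91 and 8.11 in congestive outer medulla, against 8.90, 8.96 and 8.71 in control outer medulla. In cortex it read 7.92, 7.88 and 8.05 in congestive kidneys, against 8.48, 8.71 and 8.46 in control kidneys. The congestive arrays of a region all lay below its control arrays. The log2 change was -0.97 ± 0.13 in outer medulla (SE, n = 3 pairs, limma, adjusted p = 0.0017), and the pairs changed by -1.27, -1.04 and -0.60. The congestive level was 0.51 of that in the control outer medulla. In cortex the change was -0.60 ± 0.13 (adjusted p = 0.025), with pair changes of -0.57, -0.83 and -0.41, and the congestive level was 0.658 of the control. This cortical call was lost without replicate 1 (-0.62, adjusted p = 0.084) and without replicate 2 (-0.49, adjusted p = 0.19), while the outer medulla call was kept whichever replicate was left out.

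The changes in Tfrc differed between the regions by -0.37, with an interval of -0.80 to 0.07 (adjusted p = 0.42). The level in outer medulla was 0.06 below that in cortex in congestive kidneys (log2 difference -0.06, adjusted p = 0.80) and differed by 0.30 in control kidneys (adjusted p = 0.10). In order of level, control outer medulla and control cortex overlapped, control cortex and congestive cortex did not, and congestive cortex and congestive outer medulla did. Tfrc is also a gene of immature red cells, so red cell markers are given beside it. Of 6 measured red cell markers 0 were higher and 1, Slc4a1, was lower in each region (-1.03, adjusted p = 0.0001, in outer medulla and -0.94, adjusted p = 0.00046, in cortex). Over all genes 11.3% were lower in outer medulla and 3.64% in cortex. Slc4a1 encodes the band 3 anion exchanger of red cells and of intercalated cells of the collecting duct. The globin genes Hba-a1 and Hbb-b1 differed by -0.28 (adjusted p = 0.23) and -0.26 (adjusted p = 0.20) in outer medulla and by -0.40 (adjusted p = 0.13) and -0.42 (adjusted p = 0.080) in cortex. The mean of the red cell list was 6.69 to 6.76 in congestive and 6.97 to 7.10 in control outer medulla, and 6.21 to 6.31 in congestive and 6.58 to 6.64 in control cortex. Tubule markers were also lower. Of 7 thick ascending limb markers 6 were lower in congestive outer medulla and 4 in congestive cortex. Of 9 collecting duct markers 6 and 5 were lower. In either list 0 were higher, and the shares of all genes called lower were again 11.3% and 3.64%. The mean level of the thick ascending limb list was 10.26 to 10.51 in congestive and 10.97 to 11.14 in control outer medulla, and 8.77 to 9.09 in congestive and 9.54 to 9.74 in control cortex. That of the collecting duct list was 8.09 to 8.46 in congestive and 8.55 to 8.84 in control outer medulla, and 8.66 to 8.88 in congestive and 9.09 to 9.30 in control cortex. The part of red cell and tubule markers in the Tfrc change was not tested.

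**Figure D3:**
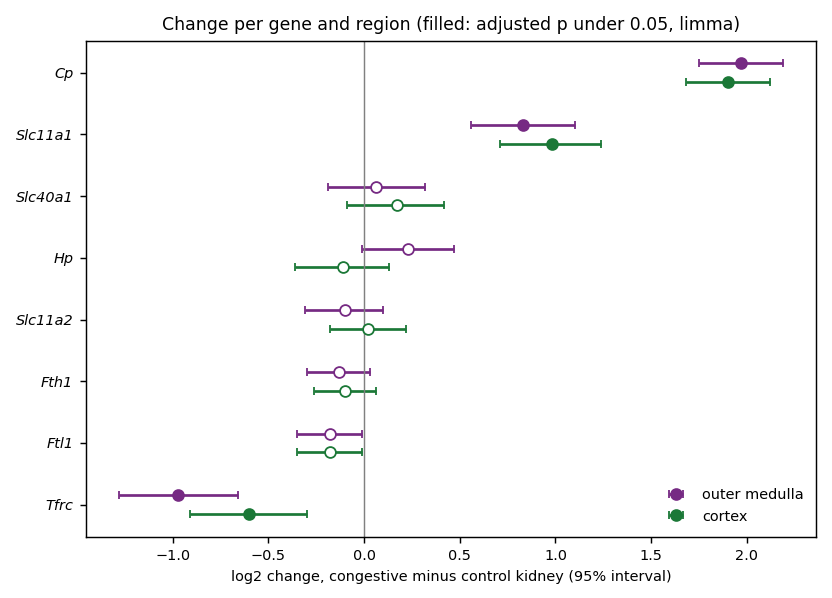
Log2 change, congestive minus control kidney, with its 95% interval for each measured iron handling gene in outer medulla (purple) and cortex (green), filled where the adjusted p was under 0.05 (limma, n = 3 pairs). Cp at 1.97 and 1.90 and Slc11a1 at 0.83 and 0.98 lie right of 0, Tfrc at -0.97 and -0.60 lies left, and the remaining 5 genes were not called.

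The ferritin chains, which store iron, were not called between congestive and control kidneys in either region. Ftl1 (17632887) read 12.78, 12.68 and 12.68 in congestive outer medulla, against 12.88, 12.91 and 12.87 in control outer medulla. In cortex it read 12.96, 12.94 and 12.88 in congestive kidneys, against 13.06, 13.11 and 13.16 in control kidneys. The groups did not overlap in either region, as was the case in this direction for 17.5% of all genes in outer medulla and 16.8% in cortex. The log2 change was -0.18 in both regions (interval -0.35 to -0.01 in each, limma, adjusted p = 0.12 in outer medulla and 0.15 in cortex), which did not pass the threshold over all genes. With a variance trend and robust moderation in eBayes it did (adjusted p = 0.03 in outer medulla and 0.044 in cortex). Ftl1 was lower in outer medulla than in cortex, by 0.22 in congestive kidneys (log2 difference -0.22, adjusted p = 0.030) and in control kidneys (-0.22, adjusted p = 0.026), calls that were lost on leaving out any of the 3 replicates (differences of -0.19 to -0.24, adjusted p of 0.13 to 0.26).

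Fth1 (17880625) read 12.08, 12.04 and 12.28 in congestive outer medulla, against 12.22, 12.21 and 12.37 in control outer medulla. Its cortical values were 12.19, 12.05 and 12.23 in congestive kidneys, against 12.22, 12.22 and 12.34 in control kidneys. It was lower in 3 of 3 pairs in each region, but the groups overlapped. The change was -0.13 (interval -0.30 to 0.03, limma, adjusted p = 0.24) in outer medulla and -0.10 (interval -0.26 to 0.06, adjusted p = 0.41) in cortex. A second, dimmer Fth1 row differed by -0.26 in outer medulla and -0.14 in cortex (adjusted p over all rows 0.13 and 0.43). The level of Fth1 differed between outer medulla and cortex by -0.02 in congestive kidneys (adjusted p = 0.90) and by 0.01 in control kidneys (adjusted p = 0.96).

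Ferroportin, the iron exporter, was set apart by region. Slc40a1 (17864290) read 8.45, 8.39 and 8.77 in congestive outer medulla, against 9.64, 9.70 and 9.51 in congestive cortex. In control kidneys it read 8.55, 8.52 and 8.35 in outer medulla, against 9.52, 9.48 and 9.36 in cortex. Thus every cortex array lay above every outer medulla array. The difference, outer medulla minus cortex, was -1.08 in congestive kidneys (0.472 of the cortex level, limma, adjusted p = 3.9e-05) and -0.98 in control kidneys (0.507 of the cortex level, adjusted p = 3.4e-05). Between congestive and control kidneys Slc40a1 differed by 0.06 in outer medulla (interval -0.19 to 0.32, adjusted p = 0.76), where 2 pairs were lower and 1 higher, and by 0.17 in cortex (interval -0.09 to 0.42, adjusted p = 0.37), where all 3 pairs were higher.

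DMT1, the importer of ferrous iron, followed the same order of regions with a smaller difference. Slc11a2 (17841135) read 9.26, 9.11 and 9.53 in congestive outer medulla, against 9.74, 9.80 and 9.92 in congestive cortex. In control kidneys it read 9.46, 9.32 and 9.43 in outer medulla, against 9.80, 9.78 and 9.83 in cortex. The regional difference was -0.52 in congestive kidneys (0.698 of the cortex level, limma, adjusted p = 0.0033) and -0.40 in control kidneys (0.759 of the cortex level, adjusted p = 0.013). Both calls were lost without replicate 1 or 2 (adjusted p of 0.057 to 0.12). Between congestive and control kidneys Slc11a2 differed by -0.10 in outer medulla (interval -0.31 to 0.10, adjusted p = 0.47) and by 0.02 in cortex (interval -0.18 to 0.22, adjusted p = 0.92).

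Haptoglobin was not called between congestive and control kidneys in either region. Hp (17733422) read 4.92, 4.84 and 4.92 in congestive outer medulla, against 4.53, 4.67 and 4.80 in control outer medulla. The cortical arrays gave 4.74, 4.46 and 4.54 in congestive kidneys, against 4.58, 4.77 and 4.72 in control kidneys. The change was 0.23 (interval -0.01 to 0.47, limma, adjusted p = 0.17) in outer medulla, where the groups did not overlap, and -0.11 (interval -0.36 to 0.13, adjusted p = 0.52) in cortex, where they did. In congestive kidneys Hp was higher in outer medulla than in cortex by 0.32 (adjusted p = 0.034), a call lost in 7 of 10 alternatives. The Hp row was dim, with a mean of 4.71 over the 12 arrays beside a median of 6.04 over all rows.

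Across regions, 2 of 8 members (Cp and Hp) were higher and 3 (Slc40a1, Slc11a2 and Ftl1) lower in outer medulla than in cortex in congestive kidneys, beside 8.96% and 9.73% of all genes. In control kidneys 1 (Cp) was higher and the same 3 were lower, beside 11.4% and 10.1% (21.5% in either direction). No member (0 of 8) had a change that differed between outer medulla and cortex, beside 1.62% of all genes (0.804% with the higher and 0.815% with the lower change in outer medulla). At an unadjusted p under 0.05 this count was 1 of 8 (Hp), and every alternative run for it gave 0.

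Bmp6 was the 1 of 16 regulators of iron balance called in both regions, beside 6.18% of all genes called higher in both. Of 16 regulators measured, 2 (Bmp6 and Hfe) were higher and 1 (Aco1) was lower in congestive outer medulla, and 1 (Bmp6) was higher in congestive cortex, beside 23.2% and 11.6% of all genes in either direction. The median log2 change was -0.01 in each region. Bmp6, a signal for hepcidin production in the liver, read 8.70, 8.65 and 8.21 in congestive outer medulla, against 7.08, 7.20 and 7.13 in control outer medulla. In the cortex, values were 8.20, 8.31 and 8.06 in congestive kidneys, against 6.95, 7.13 and 7.05 in control kidneys. It was 2.61-fold higher in outer medulla (log2 change 1.38 ± 0.11, SE, n = 3 pairs, limma, adjusted p = 0.00012) and 2.22-fold higher in cortex (1.15 ± 0.11, adjusted p = 0.00081).

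Aco1, which encodes iron regulatory protein 1, read 10.51, 10.05 and 10.76 in congestive outer medulla, against 11.04, 10.91 and 11.12 in control outer medulla. Replicate 2, the array with the lowest proximal tubule markers, was also the lowest here. The change was -0.58 (limma, adjusted p = 0.0048) in outer medulla and -0.03 (adjusted p = 0.86) in cortex. The difference between these changes was -0.55 and did not pass the threshold (interval -0.88 to -0.22, adjusted p = 0.12). Ireb2, iron regulatory protein 2, differed by -0.05 in outer medulla (adjusted p = 0.68) and by 0.00 in cortex (adjusted p = 0.98). Hfe, a partner of the transferrin receptor, changed by 0.40 in outer medulla (adjusted p = 0.02), a call that was lost on leaving out any of the 3 replicates. Hamp, which encodes hepcidin, differed by -0.08 and -0.03 (adjusted p = 0.69 and 0.88).

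Among 23 other iron transporters and reductases, 5 were higher and 5 lower in congestive outer medulla, and 3 were higher and 1 lower in congestive cortex, beside 11.8% and 11.3% of all genes in outer medulla and 7.98% and 3.64% in cortex. Cybrd1, a ferric reductase that works at the cell surface, read 7.73, 7.88 and 7.73 in congestive outer medulla, against 6.21, 6.39 and 5.98 in control outer medulla. The log2 change of Cybrd1 was 1.59 in outer medulla (limma, adjusted p = 2.7e-05) and 1.05, or 2.07-fold, in cortex (adjusted p = 0.00043). Heph (hephaestin), a ferroxidase related to ceruloplasmin, read 8.41, 8.34 and 7.96 in congestive outer medulla, against 6.97, 7.14 and 6.73 in control outer medulla. It was 2.44-fold higher there (adjusted p = 4.1e-05) and 1.68-fold higher in cortex (adjusted p = 0.0011). Both ferroxidases were thus higher in both regions, whereas ferroportin was not called in either.

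Slc39a8 (ZIP8), a metal importer, read 9.30, 8.63 and 9.31 in congestive outer medulla, against 10.26, 10.24 and 10.31 in control outer medulla. Its level was 0.439 of the control in outer medulla (log2 change -1.19, limma, adjusted p = 0.00072) and 0.686 in cortex (-0.54, adjusted p = 0.040), and the cortical call was lost on leaving out any of the 3 replicates. Slc39a14 (ZIP14), its close relative and named with its values known, moved the other way, by 0.73 in outer medulla (adjusted p = 0.0019) and 0.45 in cortex (adjusted p = 0.028). Steap1, a metalloreductase family member, changed by 1.0 in outer medulla (adjusted p = 0.018), a call lost without replicate 2 (0.61, adjusted p = 0.072) or 3 (1.02, adjusted p = 0.077). In cortex it differed by 0.43 (adjusted p = 0.28).

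In heme and hemoglobin handling, 4 of 19 measured genes were higher and 7 lower in congestive outer medulla, and 2 were higher and 1 lower in congestive cortex, beside the same shares of all genes (11.8% and 11.3%, and 7.98% and 3.64%), so that the cortical counts were near the background. The higher ones were Hmox1, Lrp1, Cd163 and Slc46a1 in outer medulla and Lrp1 and Hpx in cortex (Cd163, Slc46a1 and Hpx were named with their values known). Hmox1 (heme oxygenase 1), which frees iron from heme, read 7.26, 7.63 and 7.06 in congestive outer medulla, against 6.14, 6.14 and 5.40 in control outer medulla. The values in cortex were 7.52, 7.54 and 7.30 in congestive kidneys, against 6.62, 7.47 and 6.69 in control kidneys, where 1 control array reached the congestive level. Its log2 change was 1.43 ± 0.16 (2.69-fold, SE, n = 3 pairs, limma, adjusted p = 0.00065) in outer medulla and 0.53 ± 0.16 (adjusted p = 0.074) in cortex. Lrp1, a receptor of the heme-hemopexin complex, changed by 1.21 in outer medulla (adjusted p = 6.1e-05) and 0.74 in cortex (adjusted p = 0.0013). Cd163, the macrophage receptor of haptoglobin-hemoglobin complexes, changed by 0.65 in outer medulla (adjusted p = 0.026) and differed by -0.03 in cortex (adjusted p = 0.93).

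Among the lower genes of heme handling, Blvra (biliverdin reductase A, the enzyme that follows heme oxygenase) read 9.29, 8.73 and 9.53 in congestive outer medulla, against 10.22, 10.21 and 10.27 in control outer medulla. Its log2 change was -1.05 in outer medulla (limma, adjusted p = 0.0014) and -0.16 in cortex (adjusted p = 0.51). Abcg2, a transporter that exports porphyrins, read 9.12, 8.60 and 9.52 in congestive outer medulla, against 9.93, 9.89 and 10.03 in control outer medulla, a change of -0.87 (adjusted p = 0.003). Its change in cortex was -0.20 (adjusted p = 0.38). For both genes the lowest array was replicate 2 of congestive outer medulla, the one with the lowest proximal tubule markers. The outer medulla calls of Blvra, Abcg2, Aco1 and Slc39a8 were kept without replicate 2. All of these calls were lost in the alternative that used the methods' own test. The part of proximal tubule markers in these changes was not tested.

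Genes of iron-sulfur cluster assembly, a use of iron in the cell, were lower where called. Of 15 measured, 8 were lower and 0 higher in congestive outer medulla, with a median log2 change of -0.28. Over all genes 11.3% were lower there, with a median of -0.01. In congestive cortex 1 (Iscu) was lower and 0 higher, with a median of -0.14. Over all genes 3.64% were lower in cortex, with a median of -0.02. For 0 of the 15 was the difference between the changes in the 2 regions called. Nfs1, the cysteine desulfurase that supplies the sulfur, read 10.90, 10.49 and 11.32 in congestive outer medulla, against 11.53, 11.44 and 11.59 in control outer medulla (change -0.62, limma, adjusted p = 0.0083). Fdx1 (ferredoxin) changed by -0.52 (adjusted p = 0.0092) and Hspa9, the mitochondrial chaperone of the pathway, by -0.45 (adjusted p = 0.0052) in outer medulla. Iscu, the scaffold protein, changed by -0.31 in outer medulla (adjusted p = 0.033) and -0.36 in cortex (adjusted p = 0.029). The outer medulla calls of Nfs1 and Hspa9 were lost without replicate 1 (-0.61 and -0.41, adjusted p = 0.081 and 0.073) or 2 (-0.45 and -0.41, adjusted p = 0.066 and 0.061), that of Fdx1 without replicate 1 (-0.40, adjusted p = 0.077), and those of Iscu in both regions on leaving out any of the 3. Of the 12 proximal tubule markers 4 were lower in congestive outer medulla and 0 in cortex, beside 11.3% and 3.64% of all genes. Thick ascending limb and collecting duct markers were lower as given beside Tfrc. Of 8 fibroblast and pericyte markers 6 were higher in each region, beside 11.8% of all genes in outer medulla and 7.98% in cortex. Their mean level was 10.08 to 10.52 in congestive and 8.67 to 8.94 in control outer medulla. In cortex it was 9.45 to 9.82 in congestive and 8.18 to 8.76 in control kidneys. The part of these markers in the iron-sulfur gene changes was not tested.

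**Figure D4:**
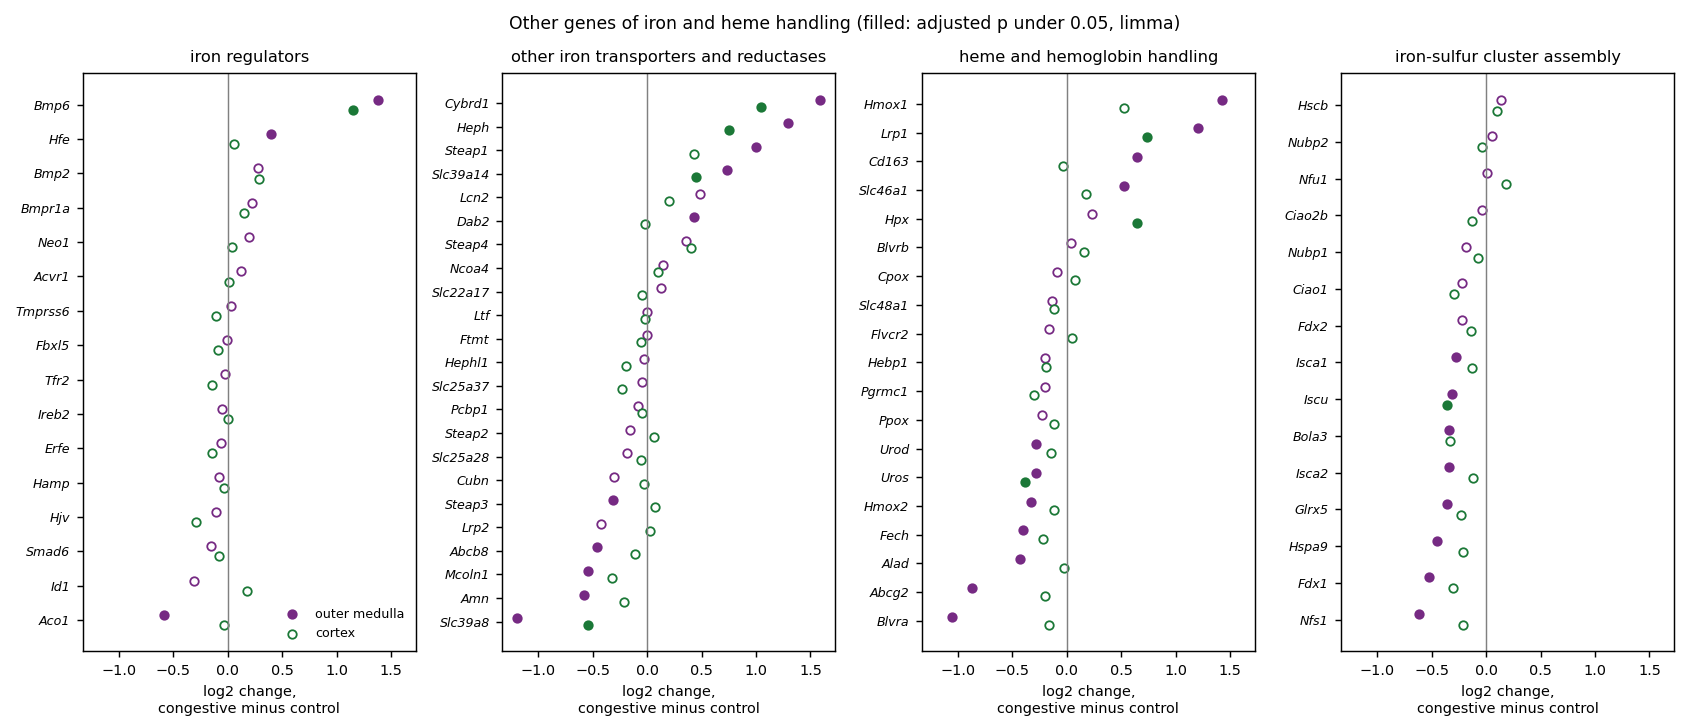
Log2 change, congestive minus control kidney, of each measured gene of 4 lists (16 iron regulators, 23 other iron transporters and reductases, 19 heme and hemoglobin genes and 15 iron-sulfur cluster genes) in outer medulla (purple) and cortex (green), filled where the adjusted p was under 0.05 (limma, n = 3 pairs). Bmp6, Cybrd1, Heph and Lrp1 are filled right of 0 in both regions, and 8 iron-sulfur cluster genes are filled left of 0 in outer medulla.

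The genes whose values most resembled each member over the 12 arrays were listed by Pearson's r, as a description in which the arrays share region and condition. For Cp these were Tbc1d2b (r = 0.988), Slfn9 (0.988) and Fn1, which encodes fibronectin (0.987). For Slc11a1 they were Parp9 (0.968), Trafd1 (0.965) and Inpp5d (0.958), and for Tfrc Stx7 (0.959), Bcat2 (0.953) and Mrpl3 (0.949). Slc40a1, which was set apart by region, most resembled RGD1559600 (0.986), Il31ra (0.986) and Car6 (0.985), and Slc11a2 resembled Ugdh (0.987), Sgpp1 (0.980) and F11r (0.978). Ftl1 was nearest to Commd9 (0.987), Commd3 (0.962) and Atp6v1f (0.960), and Fth1 to Slc44a3 (0.946), Usp2 (0.933) and Tef (0.924). Hp was nearest to Acsbg1 (0.939), Snrpepl2 (0.896) and Ankrd13d (0.887).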

How the data were processed

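RNA of 12 kidney samples was hybridized to GeneChip Rat Gene 2.0 ST arrays. The deposited values are log2 expression per transcript cluster (base taken as log2, since it is not given), which the authors had normalized between arrays in Affymetrix Expression Console, whose version and summarization were not given in the sources used here. No scanner intensities were used, so signal over background is unknown, and the number of arrays limits the precision. Of 36685 rows, 18511 carried 1 symbol, 575 several and 17599 none, which left 18166 genes after the brightest row per symbol was kept. The gene IDs of 18061 matched the RefSeq table, with 0 symbols changed.

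Congestive minus control was fitted with limma 3.58.1 (R 4.3.3) over 12 arrays with 6 pair blocks (4 residual and 3.96 prior degrees of freedom). Outer medulla minus cortex came from 4 group means (8 and 3.66), without a term for shared animals. P values were adjusted by Benjamini-Hochberg over 18166 genes and called under 0.05. Pairs rest on the comparison of kidneys within rats in the methods and on the numbers in the labels. Deviations of paired arrays from group means correlated at r of 0.1694, 0.2505 and 0.2073 in outer medulla and -0.0003, 0.1373 and 0.3440 in cortex, so that 1 cortical pair is not visible in the values. For cortical replicate 3 the title and the source name give different numbers, and the title was used. P values of congestive minus control measure the spread of the changes between pairs, pooled over the 6 pairs of both regions. Those of outer medulla minus cortex measure the spread between arrays within the 4 groups. Both rest on 3 rats.

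The members and the 13 other gene lists were chosen with earlier results of these data known. In the endothelial list, not described above, 1 of 6 measured genes was higher and 1 lower in outer medulla (11.8% and 11.3% of all genes). In cortex 2 of these 6 were higher and 0 lower (7.98% and 3.64% of all genes). Named are all members, up to 4 called genes with the largest change per list, and the 3 genes most like each member. Named outside this rule were Fga, Hpx, Cd163, Slc46a1, Slc39a14, Ireb2, Hamp, albumin, Hba-a1 and Hbb-b1. The procedure was tested on simulated data. Alternatives were no pair block, a block by animal number, eBayes with trend and robust options, regions fitted separately, the mean of rows, all rows, a filter on dim genes, quantile normalization, median centring, the methods' t-test and leaving out each replicate.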

Additional observations from a re-analysis of the deposited data

Results flagged for a closer look

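None of the iron handling genes (0 of 8) changed differently in outer medulla and cortex by the test of that difference. Among the other listed genes 6 did, each given as the outer medulla change less the cortical one (limma, adjusted p of 0.00663 to 0.05). Over all genes the share was 1.62%. Mrc1, a macrophage marker, differed by 0.88 (3.13 in outer medulla and 2.25 in cortex). A2m, a plasma protein gene, differed by 2.14 (3.24 and 1.10 in the same order). Among fibroblast and pericyte markers, Col1a1 differed by 1.03 (2.63 and 1.60) and Pdgfra by 0.75 (1.92 and 1.18). Among thick ascending limb markers, Umod differed by 1.14 (-0.71 in outer medulla and -1.85 in cortex) and Ppp1r1b by -1.38 (-1.49 in outer medulla and -0.11 in cortex). On leaving out any of the 3 replicates the calls of Mrc1, Umod, Ppp1r1b, Col1a1 and Pdgfra were lost (adjusted p of 0.056 to 0.36), and that of A2m was lost without replicate 1 (adjusted p = 0.12) or 2 (adjusted p = 0.056). Without the replicate block Mrc1 (adjusted p = 0.068), Col1a1 (0.39) and Pdgfra (0.24) were lost. With all rows tested Mrc1 (0.12), Umod (0.074), Col1a1 (0.11) and Pdgfra (0.17) were lost, and with a block by animal number Mrc1 was (0.053). No formal test for an outlying sample was run in groups of 3 arrays.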

How the results depend on the processing

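The calls of Cp in congestive against control kidneys held under 13 of 13 alternatives in each region. Without the replicate block, Tfrc changed by -0.97 in outer medulla (adjusted p = 0.00019) and -0.60 in cortex (adjusted p = 0.0088) and no member's call changed, but 149 genes in place of 294 differed in their change between regions. The methods' t-test called 1040 genes in outer medulla and 183 in cortex, in place of 4207 and 2110 (4899 and 4464 at an unadjusted p under 0.05), with 1 member higher and 0 lower in outer medulla and 0 lower in cortex. Between regions it called 289 genes in congestive kidneys in place of 3394, with 0 members higher and 0 lower, and 0 members higher in control kidneys. The trend and robust options gave 2 members lower in each region (Tfrc and Ftl1), 785 genes that changed differently between regions and 1 member higher in outer medulla of congestive kidneys. With all rows tested, 1293 features were called in cortex, 0 members were lower there, 34 features differed in their change, and 1 member was higher in outer medulla of congestive kidneys. The filter on dim genes, which left out Hp, gave 653 for the difference in change and 1 member higher in outer medulla of congestive kidneys. Median centring, with Hp kept, also left 1 member higher there.

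Leaving out 1 replicate left 1957 to 3260 genes called in outer medulla, 644 to 970 in cortex, with 0 to 1 members lower in cortex, and 0 to 43 for the difference in change. Between regions it left 888 to 2890 genes in congestive kidneys (0 to 1 members higher, 1 to 2 lower) and 1780 to 3068 in control kidneys (0 to 1 higher, 1 to 2 lower).

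Sign changes occurred among uncalled values. Over the fits without 1 replicate, congestive minus control ran from -0.112 to 0.156 for Slc40a1 in outer medulla and from -0.023 to 0.058 for Slc11a2 in cortex. The difference in change between regions ran from -0.062 to 0.008 for Fth1, from -0.035 to 0.034 for Ftl1 (-0.038 with median centring), from -0.076 to 0.202 for Cp and from -0.289 to 0.019 for Slc40a1. Outer medulla minus cortex ran, in congestive kidneys, from -0.065 to 0.020 for Fth1, from -0.124 to 0.046 for Tfrc and from -0.198 to 0.127 for Slc11a1, and, in control kidneys, from -0.003 to 0.018 for Fth1 and from -0.078 to 0.013 for Hp. Quantile normalization gave -0.009 for Fth1 and 0.009 for Hp in that comparison of control kidneys. The causes were not tested.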

Other observations

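Both rows of transferrin were annotated with Tf and Srprb together, and which transcript they reflect cannot be told from these files. The brighter row read 10.58, 10.37 and 10.98 in congestive outer medulla, against 9.50, 9.91 and 10.30 in control outer medulla, a change of 0.74 ± 0.12 (SE, n = 3 pairs, limma, adjusted p = 0.013 over all rows). In cortex it read 8.56, 9.16 and 8.62 in congestive kidneys, against 7.30, 7.88 and 7.26 in control kidneys, a change of 1.30 ± 0.12 (adjusted p = 0.0047). The dimmer row differed by -0.10 in outer medulla (adjusted p = 0.56) and by 0.03 in cortex (adjusted p = 0.87). In control kidneys the brighter row was higher in outer medulla than in cortex by 2.42.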
